A study of Homo sapiens with 6 samples.

Results

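The genes described here are 35 NRF2 targets and antioxidant enzymes, taken by symbol from the 34036 genes of a count table of HepG2 cells after knockdown of deoxyguanosine kinase (DGUOK). All 35 were found, and 34 of them are among the 14476 genes that passed the filter on low counts. HepG2 is a human hepatocellular carcinoma line with hepatocyte features, and DGUOK is the mitochondrial kinase that phosphorylates purine deoxynucleosides for mitochondrial DNA synthesis. Bulk RNA was sequenced from 3 siControl cultures, given a non-targeting siRNA, and 3 siDGUOK cultures, given a pool of siGENOME siRNAs against DGUOK, all lipid-transfected with RNAiMAX and harvested 48 h later. Groups were read from titles and column names, since every sample's treatment label reads siControl. The comparison is limited to 1 cell line and 1 siRNA pool.

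Library totals were 19065684, 18915508 and 10527216 counts in siControl replicates 1, 2 and 3, and 18613138, 15978314 and 21334876 counts in siDGUOK replicates 1, 2 and 3. The 35 genes together held between 0.504% and 0.540% of the counts of a library. Values are given in CPM with library sizes scaled by TMM, and standard errors (SE) belong to log2 fold changes. DGUOK was at 54.4, 53.1 and 48.2 CPM in the siControl libraries and at 9.08, 10.5 and 6.72 CPM in the siDGUOK libraries. Its groups were far apart, with log2 fold change −2.57 (SE 0.19) and adjusted p = 1.64e-08 in the quasi-likelihood test of edgeR.

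NRF2, encoded by NFE2L2, is a transcription factor that KEAP1 marks for degradation until electrophiles or oxidants modify KEAP1. Stabilised NRF2 binds antioxidant response elements with small MAF proteins and drives genes for glutathione synthesis, thioredoxin recycling, quinone reduction and NADPH supply. The enzymes beside these targets, such as superoxide dismutases, catalase, glutathione peroxidases and peroxiredoxins, convert superoxide and peroxides in separate cell compartments, and hepatocytes are rich in many of them.

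A gene was called when its adjusted p in edgeR's test was under 0.05 and its log2 fold change exceeded 0.5 in size. By that rule 6 of the 34 genes tested were called (17.6%), where 14.1% of all genes tested were called. GPX1 was the gene called higher (2.94%, against 7.42% of all genes tested), and GPX3, HMOX1, OSGIN1, SOD1 and GPX2 were called lower (14.7%, against 6.68%). The share called higher was thus below its background and the share called lower above it, on counts of 1 and 5 genes. By the adjusted p alone, 12 of the 34 passed (35.3%, against 19.7% of all genes tested), 3 of them higher and 9 lower in siDGUOK. The 3 siControl and 3 siDGUOK libraries did not overlap for 20 of the 34 (58.8%, against 36.0% of all genes tested), with siDGUOK above in 8 and below in 12. The median log2 fold change was −0.04 over the 34 and 0.02 over all genes tested, with 16 genes above 0 and 18 below. In these bulk samples, fewer cells of a kind and less RNA per cell cannot be told apart.

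**Figure D1:**
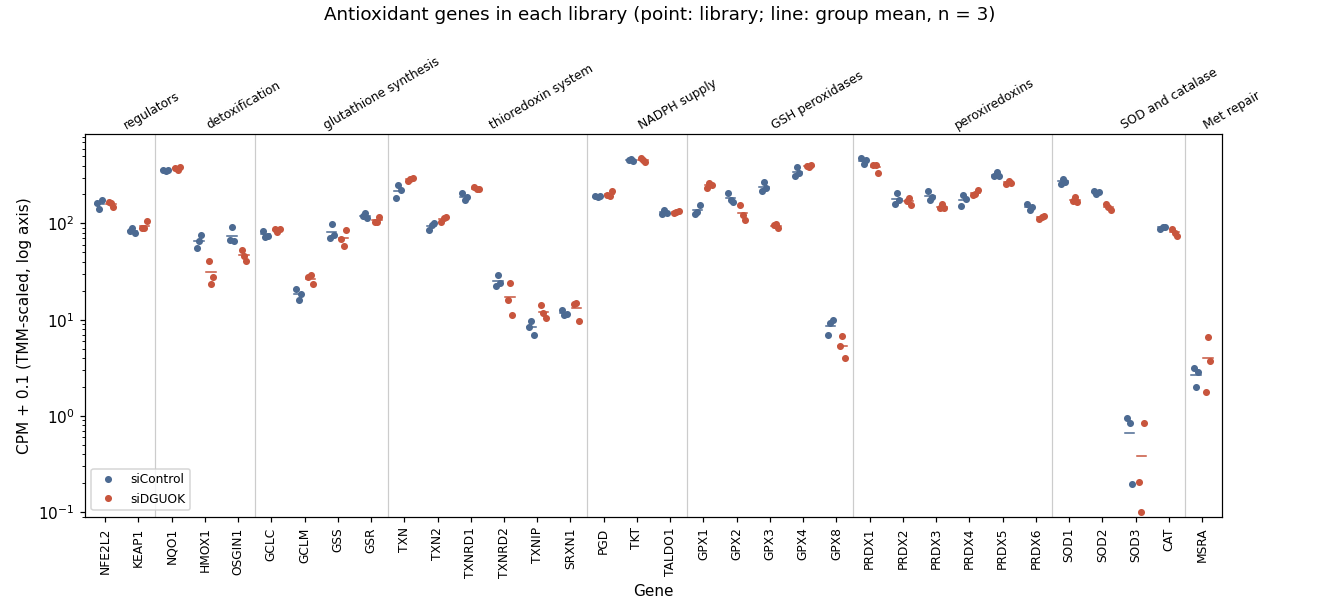
Expression of the 34 genes tested, by role, in CPM plus 0.1 on a log axis; each point is a library (3 siControl, 3 siDGUOK) and each short line a group mean. GPX1 is higher in every siDGUOK library than in any siControl library, GPX3, HMOX1 and SOD1 are lower, and NFE2L2 and NQO1 overlap.

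Neither regulator passed the test. NFE2L2 was at 162, 141 and 175 CPM in siControl and at 166, 163 and 148 CPM in siDGUOK. The groups overlapped almost fully and the log2 fold change was 0.0002 (SE 0.10, adjusted p 0.999). Of its exon bases, 38.4% are shared with other annotated genes, mostly HNRNPA3, and reads there are left out of the counts. KEAP1, the adaptor that brings NRF2 to a ubiquitin ligase, was at 83.8, 88.7 and 80.2 CPM in siControl and at 88.6, 89.6 and 106 CPM in siDGUOK. Its groups also overlapped, by a margin of 1 pair of libraries, and its log2 fold change of 0.17 had an adjusted p of 0.327. These are transcript levels, and NRF2 is regulated largely at the protein level, which was not measured here.

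The detoxification genes differed among themselves. NQO1, which reduces quinones and is a widely used NRF2 target, stood at 361, 353 and 361 CPM in siControl and at 380, 359 and 384 CPM in siDGUOK. The groups overlapped because siDGUOK replicate 2 lay within the siControl range, and the log2 fold change of 0.06 (SE 0.07) had an adjusted p of 0.625. HMOX1, which opens haem to biliverdin, iron and carbon monoxide, was at 55.6, 66.0 and 76.2 CPM in siControl and at 41.0, 23.6 and 28.0 CPM in siDGUOK. Every siDGUOK library lay below every siControl library, and siDGUOK replicate 1 was nearest to the controls. HMOX1 fell from 65.9 ± 10.3 to 30.9 ± 9.04 CPM (SD, n = 3), which is a log2 fold change of −1.09 (SE 0.18, adjusted p 0.000236). OSGIN1, an oxidative stress-induced growth inhibitor, was at 66.5, 91.3 and 65.7 CPM in siControl and at 52.6, 46.3 and 40.3 CPM in siDGUOK. The groups did not overlap, siControl replicate 2 stood above the other controls, and the log2 fold change was −0.69 (SE 0.15, adjusted p 0.00238). Thus HMOX1 and OSGIN1 were called lower while NQO1, on the same list of NRF2 targets, was not called. HMOX1 (ENSG00000100292.16) lies on chromosome 22 from 35380361 to 35394214 and OSGIN1 (ENSG00000140961.12) on chromosome 16 from 83931311 to 83966332, each on the plus strand of GRCh38.

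Among the genes of glutathione synthesis and recycling, none was called. GCLM, the modifier subunit of glutamate-cysteine ligase, was at 20.6, 16.0 and 18.2 CPM in siControl and at 27.4, 28.7 and 23.5 CPM in siDGUOK. Its siDGUOK libraries were all above its siControl libraries, with a log2 fold change of 0.54 (SE 0.19) and an adjusted p of 0.0531, just past the threshold. Without siDGUOK replicate 3 the log2 fold change was 0.61 and the adjusted p 0.0483, and when only genes averaging 10 CPM or more were kept they were 0.53 and 0.0407. GCLC, the catalytic subunit of the same ligase, averaged 76.7 ± 5.42 CPM in siControl and 85.9 ± 3.15 CPM in siDGUOK (SD, n = 3), with overlapping groups and a log2 fold change of 0.16 (adjusted p = 0.342). GSS, which adds glycine to make glutathione, averaged 81.4 ± 14.3 and 71.3 ± 13.8 CPM, a difference smaller than its spread between replicates. GSR, the NADPH-dependent reductase of oxidised glutathione, averaged 120 ± 6.26 and 108 ± 6.83 CPM, with a log2 fold change of −0.16 (adjusted p = 0.273).

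In the thioredoxin system, the cytosolic pair passed the adjusted p with changes under the fold threshold. TXN, the cytosolic thioredoxin, was at 184, 249 and 224 CPM in siControl and at 275, 289 and 300 CPM in siDGUOK. All siDGUOK libraries exceeded all siControl libraries, and the controls spread more widely than the treated cultures. The log2 fold change of TXN was 0.40 (SE 0.10, adjusted p 0.00683). TXNRD1, the selenoenzyme that reduces cytosolic thioredoxin, was at 210, 174 and 186 CPM in siControl and at 238, 225 and 228 CPM in siDGUOK. Its groups did not overlap either, with a log2 fold change of 0.28 (SE 0.09, adjusted p 0.0288). The pass of TXNRD1 was lost in 5 of the 6 fits without 1 library (adjusted p up to 0.134), and TXN reached 0.05 without siControl replicate 1. The mitochondrial partners did not pass in this test. TXN2, mitochondrial thioredoxin, was at 86.3, 96.5 and 100 CPM against 102, 114 and 116 CPM, without overlap but with an adjusted p of 0.135. TXNRD2, its reductase, was at 22.5, 29.0 and 24.1 CPM in siControl and at 15.8, 23.9 and 11.0 CPM in siDGUOK. Here siDGUOK replicate 2 lay within the siControl range, and the log2 fold change of −0.58 (SE 0.24) had an adjusted p of 0.110. TXNRD2 was called in 4 of 16 other fits: limma voom (−0.70, adjusted p 0.0335), a filter at a mean of 10 CPM (−0.59, 0.0498), the replicate number as a block (−0.63, 0.0417), and without siDGUOK replicate 2 (−0.91, 0.0118).

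TXNIP, an arrestin-like protein that binds reduced thioredoxin and limits glucose uptake, was at 8.28, 9.59 and 6.77 CPM in siControl and at 14.1, 11.6 and 10.4 CPM in siDGUOK. Its groups did not overlap, and the log2 fold change of 0.55 (SE 0.27) had an adjusted p of 0.190. SRXN1, sulfiredoxin, which restores overoxidised peroxiredoxins, averaged 11.7 ± 0.801 and 13.0 ± 3.00 CPM (SD, n = 3) and overlapped between groups. The readthrough gene ENSG00000270299 covers 90.7% of the SRXN1 exon bases, so most reads of SRXN1 are left out of these counts and its value is uncertain.

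The NADPH-supplying genes on the list barely differed. PGD, the phosphogluconate dehydrogenase, was at 191, 187 and 192 CPM in siControl and at 197, 195 and 219 CPM in siDGUOK. Its siDGUOK libraries were the higher ones, with a log2 fold change of 0.10 (SE 0.08) and an adjusted p of 0.464. TKT and TALDO1, transketolase and transaldolase, averaged 458 ± 13.9 and 131 ± 6.16 CPM in siControl, and 457 ± 18.0 and 131 ± 3.50 CPM in siDGUOK (SD, n = 3). Their log2 fold changes were −0.0043 and 0.0085, each with a sign that turned under other settings. ME1, the cytosolic malic enzyme, had no count in siControl and 3, 11 and 0 counts in the siDGUOK libraries, and did not pass the filter.

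**Figure D2:**
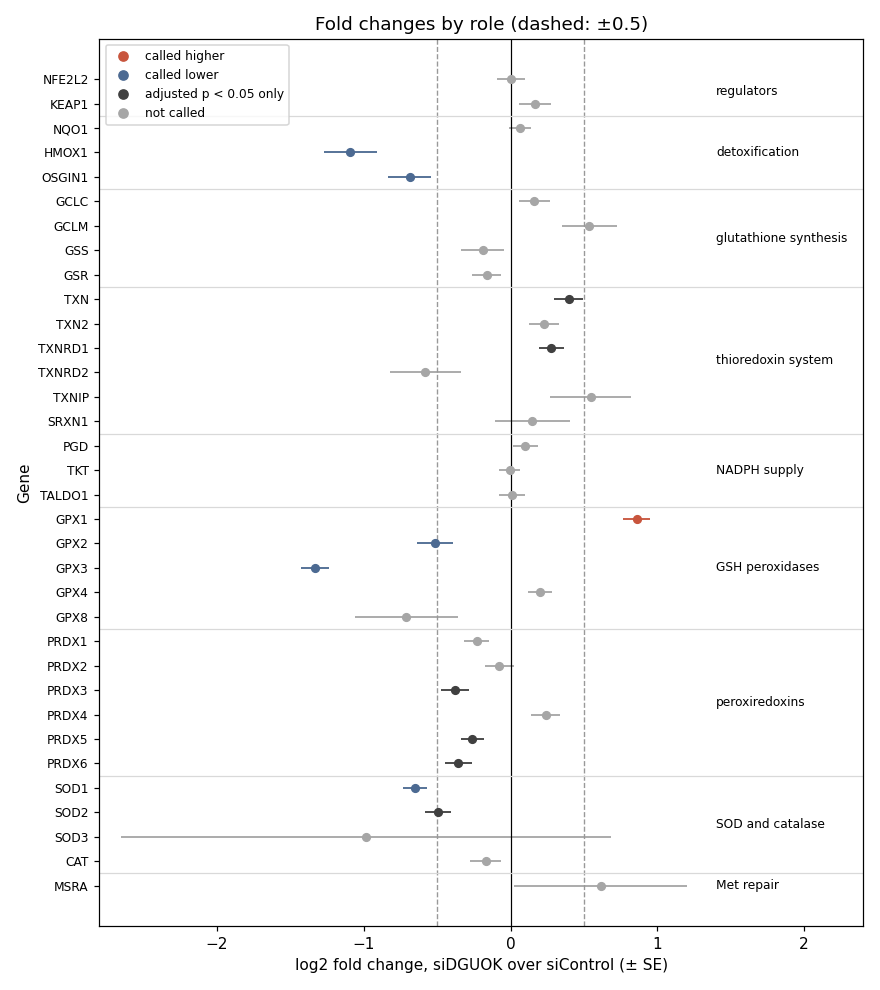
Log2 fold change of siDGUOK over siControl with its standard error for the 34 genes tested, grouped by role, with dashed lines at 0.5 in either direction (3 libraries per group). GPX1 is the gene called higher at 0.86, the 5 genes called lower run from −1.33 for GPX3 to −0.51 for GPX2, and the wide bar of SOD3 comes with at most 16 counts per library.

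The glutathione peroxidases, which reduce hydrogen peroxide or lipid peroxides with glutathione, held 3 of the 6 called genes, in opposite directions. Of the 5 tested, 60% were called, against 14.1% of all genes tested. By direction, 20% were called higher (against 7.42%) and 40% lower (against 6.68%). GPX1, the cytosolic and mitochondrial enzyme, was at 127, 131 and 154 CPM in siControl and at 233, 261 and 252 CPM in siDGUOK. No library of either group came near the other group. GPX1 rose from 137 ± 14.4 to 249 ± 14.6 CPM (SD, n = 3), which is a log2 fold change of 0.86 (SE 0.09, adjusted p 1.82e-06), or 1.81-fold. GPX3, the secreted plasma form, was at 215, 269 and 233 CPM in siControl and at 95.8, 98.5 and 90.2 CPM in siDGUOK. The siDGUOK libraries lay close together and far below the lowest control. GPX3 fell from 239 ± 27.5 to 94.8 ± 4.22 CPM (SD, n = 3), which is a log2 fold change of −1.33 (SE 0.10, adjusted p 1.21e-08), 2.52-fold lower. GPX2, the form best known from the gut epithelium, was at 207, 174 and 167 CPM in siControl and at 156, 121 and 108 CPM in siDGUOK. Its groups were separated by the narrow gap between siControl replicate 3 and siDGUOK replicate 1. The log2 fold change of GPX2 was −0.51 (SE 0.12, adjusted p 0.00469), close to the threshold. It came to −0.41 without siControl replicate 1, −0.47 without siDGUOK replicate 2 and −0.41 without siDGUOK replicate 3, where the call was lost by its size.

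GPX4, which reduces phospholipid hydroperoxides in membranes, was at 309, 384 and 337 CPM in siControl and at 393, 390 and 401 CPM in siDGUOK. The siDGUOK libraries were all above the controls by a small margin, and the log2 fold change of 0.20 had an adjusted p of 0.108. GPX8, an endoplasmic reticulum member without selenocysteine, was at 6.89, 9.06 and 9.82 CPM in siControl and at 5.19, 6.71 and 3.86 CPM in siDGUOK. It was low, its groups were barely apart, and its log2 fold change of −0.71 (SE 0.35) had an adjusted p of 0.178. GPX1 (ENSG00000233276.3) is on chromosome 3 from 49357174 to 49358605 on the minus strand, GPX2 (ENSG00000176153.11) on chromosome 14 from 64939152 to 64942746 on the minus strand and GPX3 (ENSG00000211445.11) on chromosome 5 from 151020591 to 151028988 on the plus strand. A processed copy of GPX1, GPX1P1, had 147, 136 and 36 counts in siControl and 207, 159 and 322 counts in siDGUOK. Reads that align equally well to GPX1 and its copy are left out of the counts, so the level of GPX1 is somewhat uncertain, although it had between 1612 and 5481 counts per library.

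Promoters are shown for the 3 called glutathione peroxidases and OSGIN1, and for GCLM and TXNRD1, which hold a match to the antioxidant response element core. The RefSeq table on GRCh38.p14 gives 300 bases per start, 250 before and 50 after it, and had an entry for 27 of the 35 genes. Without an entry were HMOX1, GSS, GSR, TXN2, PRDX1, PRDX6, SOD1 and MSRA. The core searched was TGACNNNGC on both strands, which includes the form TGACTCAGC that also holds an AP-1 site. Capitals mark its matches, and each sequence runs 5′ to 3′ along its gene.
GPX1, chr3:49358304-49358603, minus strand: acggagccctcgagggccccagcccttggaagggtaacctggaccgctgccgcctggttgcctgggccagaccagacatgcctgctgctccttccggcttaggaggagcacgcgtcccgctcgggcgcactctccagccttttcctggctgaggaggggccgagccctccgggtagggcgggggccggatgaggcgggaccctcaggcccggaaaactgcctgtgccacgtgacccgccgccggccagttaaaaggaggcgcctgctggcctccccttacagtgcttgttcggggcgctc
GPX2, chr14:64942696-64942995, minus strand: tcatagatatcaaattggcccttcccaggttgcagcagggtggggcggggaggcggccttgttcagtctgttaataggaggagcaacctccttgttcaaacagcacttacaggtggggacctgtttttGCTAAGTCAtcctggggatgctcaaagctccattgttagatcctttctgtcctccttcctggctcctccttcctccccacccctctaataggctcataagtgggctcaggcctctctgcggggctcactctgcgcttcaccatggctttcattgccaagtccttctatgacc
GPX3, chr5:151020341-151020640, plus strand: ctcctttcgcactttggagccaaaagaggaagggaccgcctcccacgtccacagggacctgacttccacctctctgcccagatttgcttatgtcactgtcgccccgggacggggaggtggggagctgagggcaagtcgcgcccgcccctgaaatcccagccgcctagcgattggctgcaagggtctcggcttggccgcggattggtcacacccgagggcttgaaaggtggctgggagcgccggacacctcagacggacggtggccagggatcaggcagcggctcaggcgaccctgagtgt
OSGIN1, chr16:83952990-83953289, plus strand: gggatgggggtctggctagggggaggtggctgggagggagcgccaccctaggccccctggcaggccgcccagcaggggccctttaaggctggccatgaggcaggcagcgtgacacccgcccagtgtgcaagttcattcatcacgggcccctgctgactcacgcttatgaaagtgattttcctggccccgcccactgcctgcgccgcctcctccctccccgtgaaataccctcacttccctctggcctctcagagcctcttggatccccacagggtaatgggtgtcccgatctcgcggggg
GCLM, chr1:93909381-93909680, minus strand: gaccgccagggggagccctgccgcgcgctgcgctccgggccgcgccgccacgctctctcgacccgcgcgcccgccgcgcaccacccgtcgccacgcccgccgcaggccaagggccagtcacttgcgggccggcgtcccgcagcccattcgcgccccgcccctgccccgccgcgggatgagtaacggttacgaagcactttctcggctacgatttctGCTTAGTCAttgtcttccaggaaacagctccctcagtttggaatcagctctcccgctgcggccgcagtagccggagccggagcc
TXNRD1, chr12:104286782-104287081, plus strand: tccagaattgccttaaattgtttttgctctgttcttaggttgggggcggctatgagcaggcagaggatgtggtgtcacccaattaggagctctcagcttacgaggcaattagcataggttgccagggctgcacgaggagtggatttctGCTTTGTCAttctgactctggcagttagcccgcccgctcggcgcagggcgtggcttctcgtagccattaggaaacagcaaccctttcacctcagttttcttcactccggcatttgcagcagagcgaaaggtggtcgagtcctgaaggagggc
Of these, GPX2 has TGACTTAGC, GCLM has TGACTAAGC and TXNRD1 has TGACAAAGC, each on the strand opposite to the gene. Another TXNRD1 window, chr12:104215529-104215828, is not shown and has 2 matches, TGACTTCGC on the strand of the gene and TGACGGAGC on the opposite strand. The windows of GPX1, GPX3 and OSGIN1 hold no match. PGD, ME1 and KEAP1 also have a match, which makes 6 of 27 genes, or 7 of their 39 windows (17.9%). The core occurs in 13.3% of all 35116 promoter windows and in 14.7% of those of the genes tested, and the AP-1 form in 0.561% of all windows. Among the called genes with an entry, 1 of 4 windows holds the core and 0 hold the AP-1 form. Of the 39 windows of the listed genes, 1 holds the AP-1 form (2.56%), that of ME1. A match is a description of the letters in this window, and elements farther upstream are not covered.

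The peroxiredoxins, thiol peroxidases that work with thioredoxin or glutathione, had 3 of 6 genes pass the adjusted p (50%, against 19.7% of all genes tested), each lower by less than the fold threshold. PRDX3, the mitochondrial form, was at 217, 175 and 188 CPM in siControl and at 145, 158 and 144 CPM in siDGUOK. All siDGUOK libraries were below all controls, with a log2 fold change of −0.38 (SE 0.09, adjusted p 0.00731). PRDX6, which also has phospholipase activity, was at 158, 139 and 147 CPM in siControl and at 111, 115 and 120 CPM in siDGUOK. It showed the same separation, with a log2 fold change of −0.36 (SE 0.09, adjusted p 0.00921). PRDX5, found in mitochondria, peroxisomes and cytosol, was at 308, 339 and 311 CPM against 255, 278 and 266 CPM. Its groups were also apart, with a log2 fold change of −0.26 (SE 0.08, adjusted p 0.0226). The pass of PRDX5 was lost in 4 of the 6 fits without 1 library (adjusted p up to 0.109) and that of PRDX3 without siControl replicate 1 (0.0592).

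PRDX1 and PRDX2 are the abundant cytosolic forms. PRDX1 was at 474, 414 and 457 CPM in siControl and at 409, 404 and 334 CPM in siDGUOK, with a log2 fold change of −0.23 (adjusted p = 0.0734). The groups were separated by a small gap, and 29.8% of the PRDX1 exon bases are shared with MMACHC on the opposite strand, where reads are left out of these counts. PRDX2 averaged 179 ± 24.5 and 170 ± 12.7 CPM (SD, n = 3) with overlapping groups. PRDX4, the form of the secretory pathway, had the positive log2 fold change of the family, 0.24 (SE 0.10, adjusted p 0.110), from 176 ± 24.3 to 207 ± 14.8 CPM (SD, n = 3), and its groups overlapped.

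The dismutases and catalase all had log2 fold changes below 0. SOD1, the copper and zinc enzyme of the cytosol, was at 259, 292 and 272 CPM in siControl and at 169, 188 and 168 CPM in siDGUOK. Its groups were well apart. SOD1 fell from 275 ± 16.6 to 175 ± 11.0 CPM (SD, n = 3), which is a log2 fold change of −0.65 (SE 0.08, adjusted p 1.57e-05). SOD1 (ENSG00000142168.14) lies on chromosome 21 from 31659666 to 31668931 on the plus strand. SOD2, the manganese enzyme of the mitochondrial matrix, was at 217, 200 and 213 CPM in siControl and at 161, 148 and 138 CPM in siDGUOK. It was lower in every siDGUOK library, and its log2 fold change of −0.4948 (SE 0.09, adjusted p 0.000423) fell just short of the fold threshold. RLE normalization gave −0.5030, library sizes summed over the genes tested gave −0.5044 and DESeq2 gave −0.5037, each past it, as did 4 further fits, among them those without siControl replicate 2 (−0.5285) and without siDGUOK replicate 1 (−0.5728). In all 16 other fits SOD2 was lower, with an adjusted p of at most 0.00731. CAT, the peroxisomal catalase, averaged 90.8 ± 2.23 and 80.8 ± 6.90 CPM (SD, n = 3). Its lowest control and its highest siDGUOK library were both at 88.3 CPM, and the log2 fold change of −0.17 had an adjusted p of 0.314. SOD3, the secreted dismutase, had 16, 14 and 1 counts in siControl and 2, 0 and 16 in siDGUOK, with overlapping groups (adjusted p = 0.764). MSRA, a reductase of oxidised methionine, had between 29 and 106 counts per library and overlapping groups, with a log2 fold change of 0.61 (SE 0.59, adjusted p 0.550).

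Levels were compared between genes per length, as the share of each gene in the summed TPM (over exon unions of Gencode 44) of its role within a library. These shares do not depend on library scaling. In the glutathione peroxidases, GPX1 made up 18.3%, 17.6% and 21.7% of the total in siControl and 30.9%, 35.1% and 34.9% in siDGUOK. GPX3 made up 14.8%, 17.1% and 15.6% in siControl and 6.07%, 6.31% and 5.95% in siDGUOK. GPX2 went from 27.3 ± 3.94% to 18.5 ± 3.25% and GPX4 from 37.2 ± 2.64% to 41.5 ± 1.38% (SD, n = 3). None of these 4 shares overlapped between groups, so the mix moved from GPX2 and GPX3 towards GPX1 and GPX4. The total of the 5 genes, in CPM per kilobase, was 501 ± 19.7 in siControl and 517 ± 10.4 in siDGUOK (SD, n = 3), with overlapping groups.

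In the peroxiredoxins the mix was steadier. PRDX4 rose in share from 10.1 ± 1.23% to 13.6 ± 1.35% (SD, n = 3) without overlap, and the shares of the other 5 genes overlapped between groups. Their total was 942 ± 16.9 CPM per kilobase in siControl and 827 ± 29.1 in siDGUOK, without overlap. PRDX5 and PRDX1 were the most abundant, with 39.4% and 28.3% of the siControl total by exon union. Their order depends on the length used, since the MANE Select transcripts, a length chosen after seeing the data, gave 25.9% for PRDX5 and 33.1% for PRDX1. SOD1 made up 78.9 ± 0.947% of the dismutase and catalase total in siControl and 74.1 ± 2.06% in siDGUOK, while CAT went from 14.4 ± 0.368% to 18.9 ± 1.58%, neither with overlap. The share of CAT rose while CAT itself did not (log2 fold change −0.17), because SOD1 fell. That total went from 176 ± 8.52 to 120 ± 5.69 CPM per kilobase. SOD2 held 6.58% and 6.86%, a figure set by its long annotated exon union of 18144 bases. NQO1 held 74.2 ± 2.51% of the detoxification total in siControl and 85.4 ± 2.52% in siDGUOK, and HMOX1 17.5 ± 2.27% and 8.99 ± 2.17% (SD, n = 3). The level of NQO1 itself changed little (log2 fold change 0.06), and its share rose as HMOX1 and OSGIN1 fell.

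**Figure D3:**
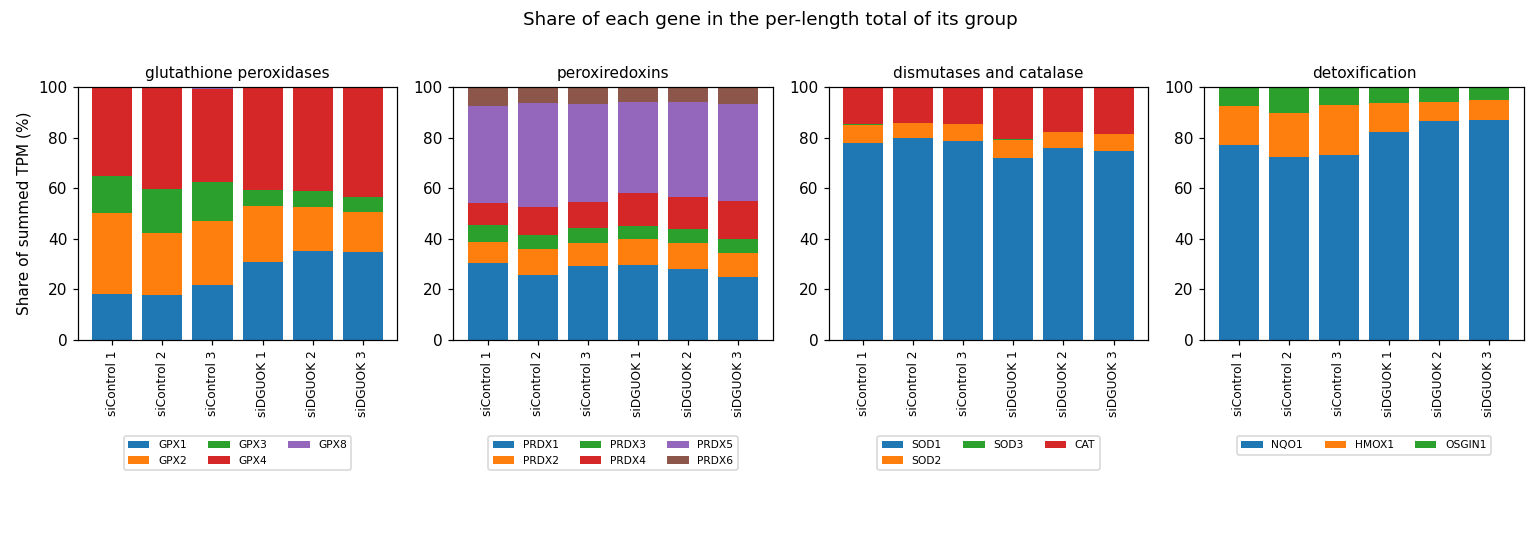
Share of each gene in the summed TPM of its role, in percent, in each of the 3 siControl and 3 siDGUOK libraries; stacked bars add to 100%. GPX1 is at 17.6% to 21.7% in siControl and at 30.9% to 35.1% in siDGUOK, and GPX3 is above 14% in every siControl library and near 6% in every siDGUOK library.

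The summed TPM themselves were unsteady in 1 library. Genes shorter than 100 bases, led by TRDJ2, held 27.3% of the per-length total of siDGUOK replicate 1 and at most 0.505% in any other library, which lowers every other TPM there. That library also had 21057 genes with a count, where the others had 16205 to 17583. Totals of a role are therefore given per kilobase with TMM-scaled library sizes, a scale chosen after seeing the data. On the TPM scale the glutathione peroxidase total had a log2 ratio of −0.11, and on the TMM scale one of 0.05. For the dismutases and catalase the log2 ratio was −0.72 in TPM and −0.56 on the TMM scale. The thioredoxin system had ratios of 0.20 and 0.35, with siDGUOK above siControl in every library on the TMM scale.

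Markers of HepG2 identity moved with the groups. Of 11 hepatocyte genes, 8 were called lower and none higher, where 6.68% of all genes tested were called lower and 7.42% higher. The summed level of the 11 genes, led by ALB, was 56356, 51061 and 49642 CPM in siControl and 30281, 27112 and 25773 CPM in siDGUOK. The 4 cholangiocyte genes, led by KRT19, summed to 1237, 1466 and 1493 CPM against 2700, 2906 and 3104 CPM, with KRT19 called higher and EPCAM lower. The 5 leukocyte genes summed to 1613, 1701 and 1702 CPM against 1902, 1758 and 1768 CPM, nearly all from LYZ, with PTPRC between 0.191 and 7.94 CPM. The 4 stromal genes, led by COL1A1, summed to 12.1, 15.0 and 10.3 CPM against 34.3, 39.2 and 21.2 CPM. COL1A1 was called higher, from 1.17 ± 0.752 to 19.4 ± 1.75 CPM (SD, n = 3). PDGFRB was called lower, from 11.0 ± 1.88 to 5.49 ± 1.53 CPM. The 3 endothelial genes, led by VWF, summed to at most 4.05 CPM except for 56.2 CPM in siDGUOK replicate 2. No marker was at 0 in all 6 libraries, and DCN was at 0 in all siControl libraries. The part of these shifts in the values of SOD1, GPX3 and the other antioxidant genes was not tested.

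Related genes came from 10 lists, chosen by pathway and holding 204 further genes, of which 173 were tested. Of these, 21 were called higher and 20 lower (23.7%, against 14.1% of all genes tested), and their median log2 fold change was −0.04. Of the 20 NRF2 partners and regulators, all tested, 15% were called, against 14.1% of all genes tested. MAFF, a small MAF partner of NRF2, rose with a log2 fold change of 0.56. PGAM5, a mitochondrial phosphatase that binds KEAP1, rose with 0.59, while PALB2 fell with −0.64. Among other textbook NRF2 targets, SLC7A11, the cystine transporter, rose from 31.1 ± 5.65 to 76.4 ± 7.32 CPM (SD, n = 3), and AKR1B1 was higher with a log2 fold change of 0.53. CES1, AKR1C3, GSTM3, GSTM4 and ABCC4 were lower, with log2 fold changes of −0.97, −0.64, −0.70, −0.69 and −0.70. Of the 36 targets tested in that list, 22.2% were called, 8.33% higher and 13.9% lower. Over all genes tested, 7.42% were called higher and 6.68% lower. Known NRF2 targets thus stood on both sides, as did the genes described above.

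Glutathione transport and turnover had 4 of 19 genes called higher (21.1%, against 7.42% of all genes tested) and 2 lower (10.5%, against 6.68%). SLC3A2, the partner chain of SLC7A11, had a log2 fold change of 0.64 and the gamma-glutamyl transferase-like GGT5 one of 1.90, while GGT1 and ANPEP, which break down extracellular glutathione, had −0.90 and −1.79. CHAC1, which degrades glutathione in the cytosol, had no count in siControl and 15, 16 and 50 counts in siDGUOK, and lost its call in 7 of 15 other fits. In NADPH supply, MTHFD1L, a mitochondrial folate enzyme, was called higher (log2 fold change 0.61) and NADK2, the mitochondrial NAD kinase, lower (−1.09). Of the 18 genes tested in the NADPH list, 16.7% were called, against 14.1% of all genes tested. GLRX, a glutaredoxin that removes glutathione from proteins, rose from 93.3 ± 14.2 to 217 ± 5.70 CPM (SD, n = 3). With it, TXNDC17, TMX3 and TXNDC9 of the thioredoxin-like list were higher at log2 fold changes of 0.62, 0.60 and 0.56, and TXNDC16 was lower at −1.39. Of the 23 genes tested in the thioredoxin-like list, 21.7% were called.

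Of 28 selenoproteins and selenocysteine genes tested, GPX1 and SELENOW were called higher (7.14%, against 7.42% of all genes tested) and 8 were called lower (28.6%, against 6.68%), among them GPX2 and GPX3. SELENOP, the selenium carrier secreted by hepatocytes, fell from 1324 ± 91.2 to 659 ± 55.6 CPM and SEPHS2, which makes the selenium donor, from 364 ± 25.4 to 216 ± 12.4 CPM (SD, n = 3). The other log2 fold changes in that list were 0.67 for SELENOW, −0.64 for SELENOI, −0.89 for SELENON, −1.38 for DIO1 and −1.59 for SELENOM. Beside TXNIP, ARRDC2, ARRDC3 and MLX were called higher (1.05, 0.87 and 0.56 on the log2 scale) and MLXIPL, a glucose-sensing factor that drives TXNIP, lower (−0.79), out of 7 tested. Of these 7, 57.1% were called, against 14.1% of all genes tested. Among 10 oxidant sources tested, MAOA was lower (−1.42), and NOX4, a hydrogen peroxide-producing oxidase, had no count in siControl and 21, 58 and 46 counts in siDGUOK. LPCAT3 was lower (−0.52) and SLC7A11 higher among 14 genes of quinone, haem and ferroptosis defence. Among 14 other redox genes tested, MT2A (3.23), MT1X (2.62) and SESN3 (1.42) were higher and SCARA3 (−2.46) lower. Called were 20% of the oxidant sources, 14.3% of the quinone, haem and ferroptosis genes and 28.6% of the other redox genes. The share over all genes tested was 14.1%.

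Several calls among these related genes did not hold under other fits. GSTM4 lost its call in 10 of 16 fits, with an adjusted p of up to 0.176, and ABCC4 in 4 of 16, with up to 0.119. The fits in which CHAC1 lost it include the replicate block (0.0564) and 5 of the 6 fits without 1 library (up to 0.105). SELENOM lost it in 7 of 15 (up to 0.178) and DIO1 without siControl replicate 1 (0.0524). SCARA3 lost it in 6 of 15, with DESeq2 (0.299) and in 4 fits without 1 library, and its log2 fold change ran from −4.38 to −0.25, the smallest being the shrunken one. SESN3 lost it without siControl replicate 1 (0.0731) or siDGUOK replicate 3 (0.127). LPCAT3 lost it in 4 of 16 fits, PALB2 and AKR1B1 in 3, MAFF and TXNDC9 in 2, and TXNDC17 and MLX in 1.

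Of the 6 called genes, GPX1, GPX3, HMOX1, OSGIN1 and SOD1 were called under each of the 16 other fits with the same call rule. Without 1 library, the log2 fold change ran from 0.81 to 0.95 for GPX1, from −1.40 to −1.24 for GPX3 and from −0.70 to −0.60 for SOD1. HMOX1 ran from −1.37 to −0.93 and OSGIN1 from −0.80 to −0.51, the latter close to the threshold.

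**Figure D4:**
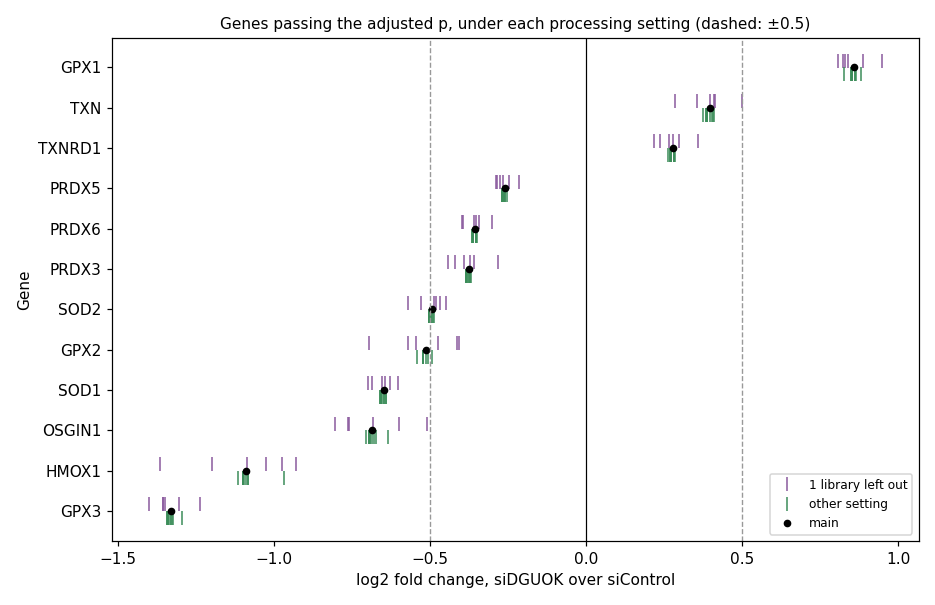
Log2 fold change of the 12 genes with an adjusted p under 0.05, with all 6 libraries in edgeR (black points), with 1 library left out (upper ticks) and under the other settings (lower ticks), with dashed lines at 0.5 in either direction. GPX2 and SOD2 lie on the −0.5 line, whereas GPX1, GPX3, HMOX1 and SOD1 stay beyond it.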

How the data were processed

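RNA-seq counts of 3 siControl and 3 siDGUOK HepG2 cultures were analysed. Before alignment the authors discarded adapter, spike-in, rRNA and tRNA reads. They aligned the rest with STAR 2.6.1 to GRCh38 with Gencode 27, removed low-complexity alignments and counted reads per gene with featureCounts 1.6.5 (tools and versions per the labels, steps per the study's methods). The deposited values are raw counts per gene, not normalized. By default featureCounts ignores strand and skips multi-mapping reads and reads shared by overlapping genes, so overlapping genes and near-identical copies are undercounted. Counts of replicates differed by more than Poisson sampling in every pair, with a chi-square per degree of freedom from 10.8 to 24.8.

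The whole table was fitted in R 4.3.3 with edgeR 4.0.16 (filterByExpr with minimum count 10, TMM, robust quasi-likelihood fit of condition alone), with Benjamini-Hochberg adjustment over the 14476 genes tested. Library sizes were totals over all genes. This replaced a first fit, already seen, with sizes summed over the genes tested, in which SOD2 was called. It was chosen because it gave the 2041 called genes of an earlier edgeR analysis of this table, which does not state its library sizes. The authors tested with DESeq2. Standard errors are |log2 fold change|/√F. CPM used TMM-scaled library sizes, and TPM divided counts by exon-union length. The script was tested on simulated data. Lengths and positions came from Gencode 44 on GRCh38, found for 99.0% of genes with a count; the identifier of SOD2 differs there, and it was matched by symbol. The members, their roles, the related lists and the markers were chosen with earlier results of these data known. Promoters came from RefSeq on GRCh38.p14 and were searched for TGACNNNGC on both strands. Named are DGUOK, all 35 members and called genes of the related lists, not all of which are listed. Alternatives were RLE and upper-quartile normalization, 2 other count filters, no mitochondrially encoded genes, DESeq2 1.42.0, limma 3.58.1 voom, replicate number as a block, other call rules and each library left out. That first fit, TMM-scaled counts per kilobase and MANE Select lengths were added as alternatives after seeing the data. P-values measure the spread between the cultures of this experiment.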

Additional observations from a re-analysis of the deposited data

How the results depend on the processing

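GPX1, GPX3, HMOX1, OSGIN1 and SOD1 kept their calls in every fit with the same call rule. The number of members called higher, 1 in the report, was 2 when only genes averaging 10 CPM or more were kept, 3 by the adjusted p alone and 0 at a log2 fold change over 1. The number of members called lower, 5 in the report, was 9 by the adjusted p alone and 2 at a log2 fold change over 1. Leaving out 1 library gave 1 to 2 called higher and 4 to 6 called lower, and the median log2 fold change of members ran from −0.0904 to −0.0102. SOD2 crossed the fold threshold in 7 of 16 fits, GPX2 lost its call in 4 of 16, and the cause was not tested. NFE2L2 was negative at −0.0079 with RLE, −0.0096 without mitochondrially encoded genes, −0.0077 with genes averaging 10 CPM or more, −0.0085 and −0.0082 with DESeq2 unshrunken and shrunken, −0.0094 with library sizes over the genes tested, and −0.0819 to 0.0731 without 1 library. TALDO1 was −0.0018 without mitochondrially encoded genes, −0.0004 with DESeq2 in either form, −0.0017 with library sizes over the genes tested, and −0.022 to 0.0452 without 1 library. TKT was 0.0023 with no count filter and −0.0481 to 0.0176 without 1 library, and PRDX2 −0.1588 to 0.0376. None of these 4 genes was called under any fit.

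The replicate numbers did not pair the samples: the deviations from the group means of libraries with the same number correlated at 0.024, 0.0166 and −0.00224. With the replicate block, 1 gene was called higher and 6 lower, TXNRD2 being the addition. TXNIP, GPX8, MSRA and SOD3, near or under 10 CPM, had wide standard errors, and siControl replicate 3 was the shallowest library. Protein and enzyme activity were not measured, and the fold changes describe 1 siRNA pool at 48 h.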
